A study of Mus musculus with 2 samples.

Results

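Immunity-related GTPases (IRGs) are a family of interferon-inducible GTPases that is most expanded in rodents. The 7 described here were taken by gene symbol from a deposited expression table of 14339 named genes. They comprise 3 regulatory members, Irgm1, Irgm2 and Igtp, and 4 effector members, Iigp1, Ifi47, Tgtp1 and Tgtp2, and all 7 had a row. The table compares poly-A RNA of cultured mouse primary hepatocytes given ClpP siRNA with that of the same cell type given GFP siRNA, the control. Both groups were transfected with a lipid reagent, and each is a single library. For the animals' strain, age and sex, for the siRNA dose and for the harvest time, nothing is given in the sources used here.

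IRG proteins act in cells invaded by microbes that live inside a vacuole, such as Toxoplasma and Chlamydia in the mouse. Effector members assemble on the vacuole membrane in their GTP-bound form and break it open. Regulatory members, which differ from the effectors in their GTP-binding site, sit on the cell's own membranes and keep the effectors in the inactive, GDP-bound form there. Mouse IRG genes are switched on by interferon through interferon response sites in their promoters, and Iigp1 is known to be made in mouse liver without infection as well.

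Every one of the 7 members had a higher level in the ClpP siRNA library. The summed level of the 7 was 1386 FPKM (fragments per kilobase scaled by library size, a level per length) in the ClpP siRNA library and 355 FPKM in the GFP siRNA library, a ratio of 3.90. That sum was 0.259% of the FPKM total in the ClpP siRNA library and 0.0667% in the GFP siRNA library. On the log2(FPKM + 1) scale, the difference between the libraries (the log2 ratio, ClpP siRNA minus GFP siRNA) had a median of 1.95 over the 7 members and ran between 1.58 and 3.14. All 7 were past 2-fold higher, the size used here to call a gene, and 0 were past 2-fold lower. Among the 11087 genes with a mean of at least 1 FPKM, 5.19% were past 2-fold higher and 2.04% past 2-fold lower. Their median log2 ratio was -0.01, and the span between percentiles 16 and 84 ran from -0.36 to 0.40.

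With 1 library per group there is no spread between replicates, so no test or p-value is given, and no gap between neighbouring members can be set against an error. The siRNA target Clpp, a mitochondrial matrix protease subunit, had 9.32 FPKM in the ClpP siRNA library and 45.1 FPKM in the GFP siRNA library. The effect of the ClpP siRNA duplex and the effect of less Clpp cannot be told apart in this design.

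**Figure D1:**
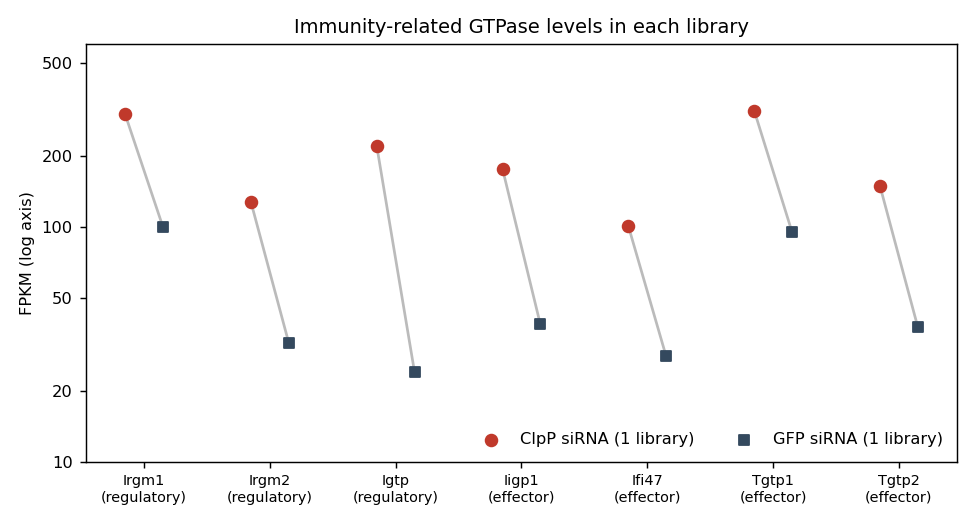
FPKM of the 7 members on a log axis, with the ClpP siRNA library as circles and the GFP siRNA library as squares, 1 library each. In every member the circle lies above the square, and Igtp, at 220 FPKM against 24.1 FPKM, has the longest line.

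Irgm1, a regulatory member found on the Golgi and on lysosomes, had 301 FPKM in the ClpP siRNA library and 100 FPKM in the GFP siRNA library. Its log2 ratio of 1.58 was the smallest of the 7, although it was the most abundant member in the GFP siRNA library. Irgm2, a regulatory member of the Golgi, had 127 FPKM with ClpP siRNA and 32.1 FPKM with GFP siRNA, a log2 ratio of 1.95. Igtp, also called Irgm3, is the regulatory member of the endoplasmic reticulum and of lipid droplets. It had 220 FPKM with ClpP siRNA and 24.1 FPKM with GFP siRNA, a log2 ratio of 3.14 and an FPKM ratio of 9.14. Igtp was thus the scarcest of the 7 in the GFP siRNA library and the third most abundant in the ClpP siRNA library.

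The regulatory genes therefore differed among themselves in how far apart the libraries were. Igtp stood at 0.731 of the Irgm1 level in the ClpP siRNA library and at 0.241 of it in the GFP siRNA library. Set against Irgm2, Igtp was at 1.73 times its level with ClpP siRNA and at 0.75 times its level with GFP siRNA. The ratio of Irgm2 to Irgm1 was closer between the libraries, at 0.423 with ClpP siRNA and 0.321 with GFP siRNA.

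Iigp1, also called Irga6, an effector that coats the Toxoplasma vacuole, had 176 FPKM in the ClpP siRNA library and 38.4 FPKM in the GFP siRNA library. Its log2 ratio of 2.16 was the largest of the 4 effectors. Ifi47, also called Irgd, another effector that loads onto it, had 100.5 FPKM with ClpP siRNA and 28.1 FPKM with GFP siRNA, a log2 ratio of 1.80. Tgtp1 had 312 FPKM with ClpP siRNA and 95.1 FPKM with GFP siRNA, a log2 ratio of 1.70, and was the most abundant member with ClpP siRNA. Its neighbour Tgtp2 had 149 FPKM with ClpP siRNA and 37.4 FPKM with GFP siRNA, a log2 ratio of 1.96. The pair encodes the effector Irgb6, a pioneer among the IRGs that load onto the Toxoplasma vacuole.

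Tgtp1 and Tgtp2 are near-identical copies, so the split of reads between them is uncertain. In GENCODE M21 transcripts, 91.4% of all 50-base stretches of Tgtp1 and 90.6% of those of Tgtp2 occur unchanged in another gene, nearly always in the other copy. Summed as a single locus, the pair had 461 FPKM with ClpP siRNA and 133 FPKM with GFP siRNA, a log2 ratio of 1.79, and would be the most abundant IRG locus in both libraries. Igtp shares 12.3% of its 50-base stretches, all with Irgm2, and Irgm2 shares 7.36% of its own. For Irgm1, Iigp1 and Ifi47 the shares were 0.995%, 3.19% and 3.71%. In RefSeq annotation (GRCm38.p6) the span of Tgtp1 overlaps the long non-coding gene Gm42074 and that of Ifi47 the pseudogene Gm12188, neither of which was analysed here.

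Regulatory and effector members were both higher with ClpP siRNA, by sums of like ratio. The 3 regulatory genes summed to 649 FPKM with ClpP siRNA and 156 FPKM with GFP siRNA, and the 4 effectors to 737 FPKM with ClpP siRNA and 199 FPKM with GFP siRNA. The regulatory sum over the effector sum was therefore 0.88 in the ClpP siRNA library and 0.785 in the GFP siRNA library. The regulatory genes did not share this shift. Of the sum of all members, Igtp made up 15.9% with ClpP siRNA and 6.78% with GFP siRNA. Irgm1 made up 21.7% with ClpP siRNA and 28.2% with GFP siRNA, and Irgm2 9.19% and 9.04%. The median log2 ratio was 1.95 for the regulatory and 1.88 for the effector genes, and the regulatory range of 1.58 to 3.14 encloses the effector range of 1.70 to 2.16. Members also lay closer together in level with ClpP siRNA, where the highest was 3.11 times the lowest, against 4.15 times with GFP siRNA.

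Set among all genes, the members were abundant in the ClpP siRNA library without having the largest log2 ratios. Tgtp1 ranked 261st and Irgm1 268th by FPKM of 11087 genes with ClpP siRNA, against ranks of 791 and 748 with GFP siRNA. Igtp ranked 348th with ClpP siRNA and 3189th with GFP siRNA. By log2 ratio Igtp ranked 57th, Iigp1 127th, Tgtp2 170th, Irgm2 172nd, Ifi47 213th, Tgtp1 244th and Irgm1 275th. In the authors' deposited table, where fold changes follow quantile normalization, the values were 2.73 for Irgm1, 2.95 for Tgtp1, 3.31 for Ifi47, 3.61 for Irgm2, 3.71 for Tgtp2, 4.20 for Iigp1 and 8.13 for Igtp.

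**Figure D2:**
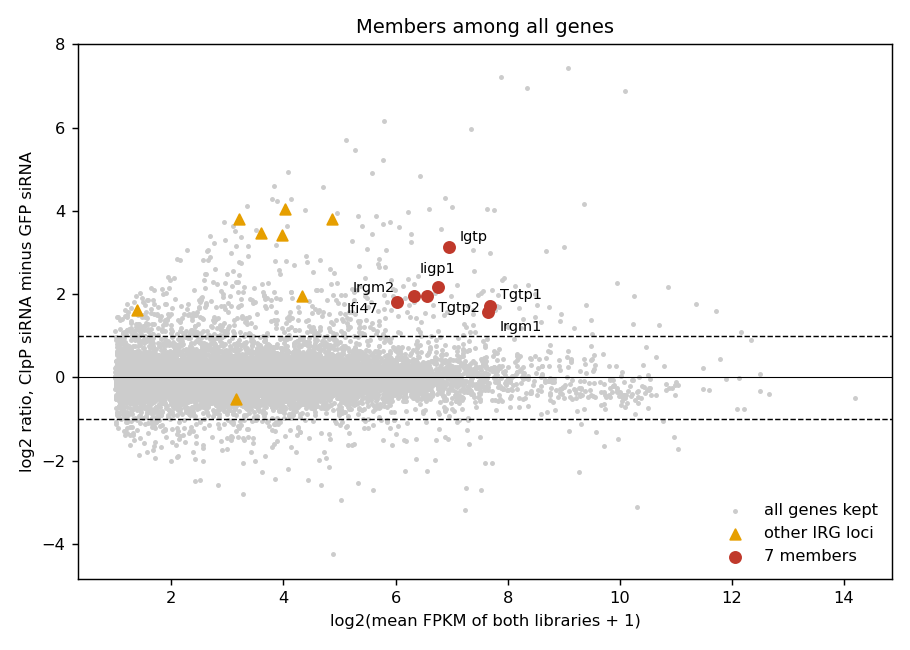
Log2 ratio (ClpP siRNA minus GFP siRNA) of each of 11087 genes against log2 of its mean FPKM + 1, with the 7 members as circles and the 8 other IRG loci that passed the filter as triangles. Dashed lines mark 2-fold; all 7 members lie above the upper line, with Igtp at 3.14 the highest.

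The promoters of most members carry the same pair of interferon elements, and their last 100 bases before the start site are shown because these genes were higher together in the ClpP siRNA library. RefSeq promoter windows of GRCm38.p6, 250 bases before to 50 bases after the start site, were matched by symbol for 6 of the 7 members. Capitals mark GAAANNGAAA, the core of the interferon-stimulated response element (ISRE), and TTCNNNGAA, the gamma-activated site (GAS) of interferon gamma signalling, both searched on either strand. A GAS overlaps an ISRE core in none of the 6.
Irgm1, chr11:48871421-48871520, minus strand: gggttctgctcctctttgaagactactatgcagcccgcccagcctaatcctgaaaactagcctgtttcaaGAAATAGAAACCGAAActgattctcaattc
Irgm2, chr11:58214877-58214976, plus strand: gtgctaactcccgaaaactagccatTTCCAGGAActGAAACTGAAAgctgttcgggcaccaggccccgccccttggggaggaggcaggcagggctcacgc
Igtp, chr11:58199456-58199555, plus strand: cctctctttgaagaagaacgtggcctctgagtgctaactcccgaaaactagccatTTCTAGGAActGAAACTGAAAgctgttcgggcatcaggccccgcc
Ifi47, chr11:49076487-49076586, plus strand: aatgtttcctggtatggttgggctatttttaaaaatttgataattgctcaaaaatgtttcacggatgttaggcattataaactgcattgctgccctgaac
Tgtp1, chr11:48992247-48992346, minus strand: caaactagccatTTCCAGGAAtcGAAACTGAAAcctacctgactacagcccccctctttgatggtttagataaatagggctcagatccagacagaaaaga
Tgtp2, chr11:49064213-49064312, minus strand: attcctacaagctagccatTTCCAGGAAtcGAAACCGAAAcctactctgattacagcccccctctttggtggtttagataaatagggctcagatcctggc

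The ISRE core was found in 5 of these 6 windows and the GAS letters in 4, while both were absent from the Ifi47 window as annotated. Irgm2, Igtp, Tgtp1 and Tgtp2 held both, the GAS first and the ISRE core 2 bases after it, as TTCCAGGAACTGAAACTGAAA in Irgm2, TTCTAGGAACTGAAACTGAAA in Igtp, TTCCAGGAATCGAAACTGAAA in Tgtp1 and TTCCAGGAATCGAAACCGAAA in Tgtp2. Irgm1 held overlapping ISRE cores and no GAS. Over all 32851 RefSeq promoter windows of this length, 3.44% held the ISRE core, 8.30% the GAS letters and 0.454% both. The joined pattern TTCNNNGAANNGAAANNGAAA occurred in 5 windows, those of Irgm2, Igtp, Tgtp1, Tgtp2 and Gm12185, a further IRG locus. Its spacing was read from these promoters, so this count describes the family and is no measure of chance. A match is a description of letters and not of binding.

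Promoter likeness and log2 ratios are set side by side here as a description, and a link between them was not tested. Igtp and Irgm2 were identical at 244 of 270 aligned promoter positions (90.4%), and their log2 ratios were 3.14 and 1.95. Tgtp1 and Tgtp2 were identical at 164 of 192 aligned positions (85.4%), and their log2 ratios were 1.70 and 1.96, with an uncertain split of reads between them. Ifi47, with neither motif in the window searched, had a log2 ratio of 1.80. Of the further IRG loci, Gm5431, 9930111J21Rik2 and Irgq also held neither, and their log2 ratios were 3.46, 3.43 and -0.52. Several RefSeq transcripts are listed for Ifi47, and windows at any other start site were not searched.

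**Figure D3:**
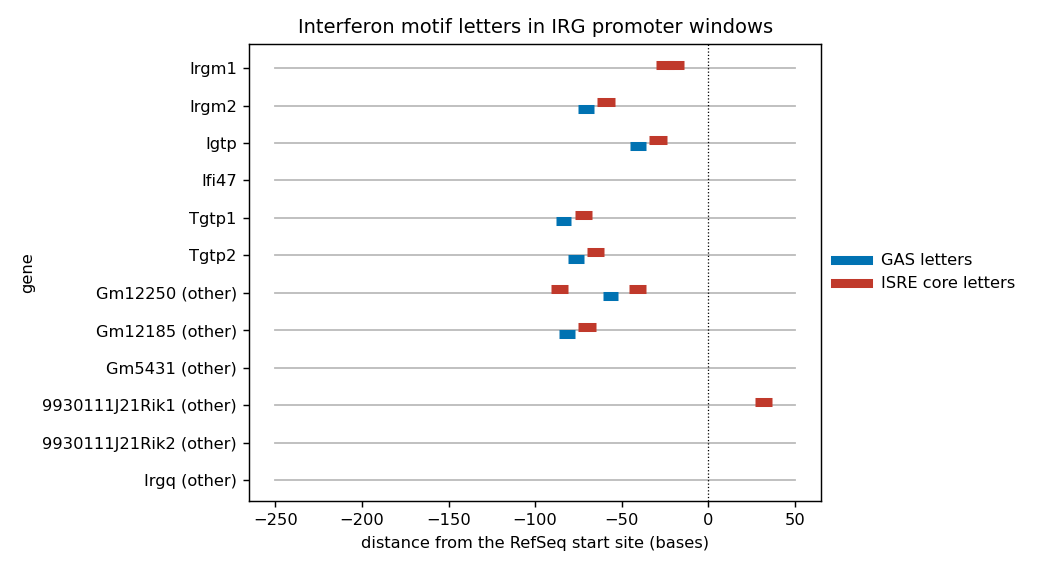
Positions of the GAS and ISRE core letters in the promoter windows of 6 members and 6 other IRG loci, in bases from the RefSeq start site. In Irgm2, Igtp, Tgtp1, Tgtp2 and Gm12185 a GAS lies directly before an ISRE core. The windows of Ifi47, Gm5431, 9930111J21Rik2 and Irgq hold neither.

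Further IRG loci, most of them still named as gene models, were scarcer than the members in both libraries. Of 9 in the table, Irgq is a distant relative not known as interferon-inducible, and it had 6.28 FPKM with ClpP siRNA and 9.42 FPKM with GFP siRNA, a log2 ratio of -0.52. The other 8 were past 2-fold higher with ClpP siRNA, of which 7 passed the filter on low values. Among all genes passing that filter, 5.19% were past 2-fold higher. Gm12250, Gm4841 and F830016B08Rik were below 1 FPKM with GFP siRNA and passed it through their level with ClpP siRNA. These 8 ran between 1.39 and 53.6 FPKM with ClpP siRNA and between 0.05 and 7.24 FPKM with GFP siRNA. In the same GFP siRNA library the 7 members ran between 24.1 and 100 FPKM, so the ranges of the members and of these 8 loci did not overlap there.

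Gm12250, which encodes the effector Irgb10 that attacks bacterial membranes, had 29.7 FPKM with ClpP siRNA and 0.846 FPKM with GFP siRNA, a log2 ratio of 4.05. The chromosome 18 locus Gm4841 had 16.2 FPKM with ClpP siRNA and 0.231 FPKM with GFP siRNA, a log2 ratio of 3.80. The copies 9930111J21Rik1 and 9930111J21Rik2, which share 76.2% and 49.0% of their 50-base stretches with each other, had log2 ratios of 3.80 and 3.43. The first stood at 53.6 FPKM with ClpP siRNA and 2.91 FPKM with GFP siRNA, and the second at 27.6 FPKM with ClpP siRNA and 1.66 FPKM with GFP siRNA. Gm5431 had 21.2 FPKM with ClpP siRNA and 1.02 FPKM with GFP siRNA, a log2 ratio of 3.46. Of its 50-base stretches, 47.6% occur in other genes, and 34.8% occur in 9930111J21Rik1. For Gm12185 17.2% occur in other genes, so the split of reads among these loci is uncertain as well. Gm4951, of these 8 loci the closest to the members in level with GFP siRNA, had 31.0 FPKM with ClpP siRNA and 7.24 FPKM with GFP siRNA. Its log2 ratio of 1.96 was that of Tgtp2 to the digits printed. F830016B08Rik had 2.96 FPKM with ClpP siRNA and 0.294 FPKM with GFP siRNA, and Gm12185 had 1.39 FPKM with ClpP siRNA and 0.05 FPKM with GFP siRNA. The FPKM ratio ran from 4.28 to 69.8 over these 8 loci and from 3.01 to 9.14 over the 7 members. Summed, the 8 loci had 184 FPKM with ClpP siRNA and 14.2 FPKM with GFP siRNA.

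By their order in RefSeq annotation, the IRG genes measured here lie in 2 groups on chromosome 11 and in 1 on chromosome 18, apart from Irgq, which lies alone on chromosome 7. The first chromosome 11 group holds Irgm1, Tgtp1, Tgtp2 and Ifi47, the second Igtp and Irgm2, and the chromosome 18 group Iigp1. Genes flanking the groups were chosen by position after the values were seen, and their values are given as a description. Next to the second group, Mrpl22 and Zfp692 had log2 ratios of 0.12 and -0.16. Chsy3 and Smim3, on either side of the chromosome 18 group, had -0.35 and -0.39, and Trim7, before Irgm1, had -0.79. Olfr56, after Ifi47, stood just past 2-fold higher with 1.47 FPKM in the ClpP siRNA library and 0.231 FPKM in the GFP siRNA library, and all the 50-base stretches that Ifi47 shares are shared with Olfr56. Around Irgq, Zfp428 had a log2 ratio of -1.13 and Xrcc1 of 0.05. Psme2b, a proteasome activator copy lying within the first group, had 16.2 FPKM with ClpP siRNA and 0.654 FPKM with GFP siRNA, a log2 ratio of 3.38.

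**Figure D4:**
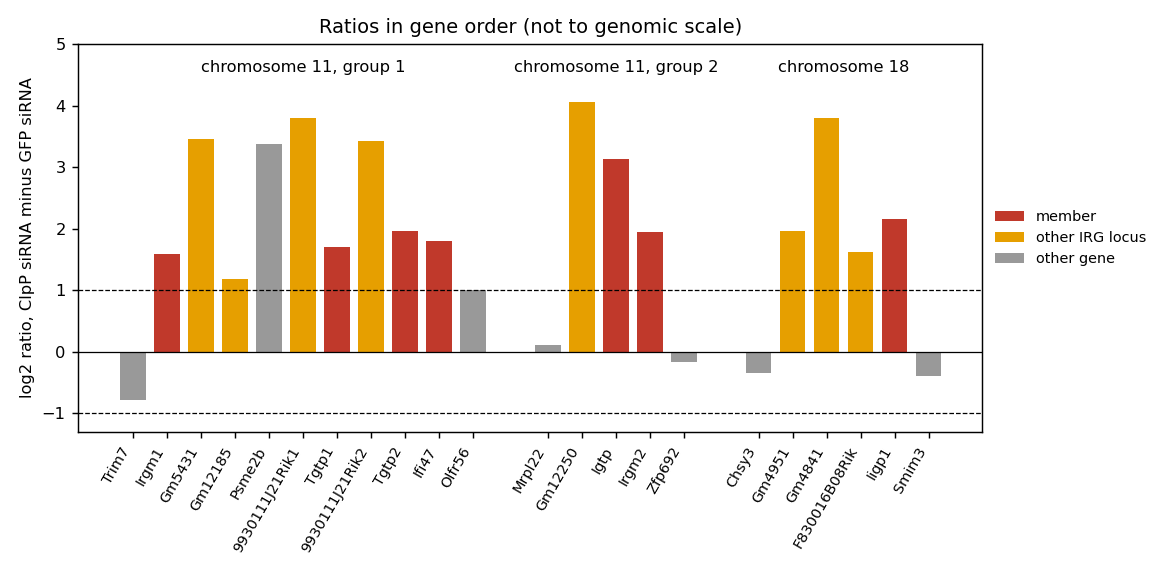
Log2 ratios (ClpP siRNA minus GFP siRNA) of IRG genes on chromosomes 11 and 18 and of the other listed genes beside or among them, in gene order and not to scale; bars start at 0 and dashed lines mark 2-fold. The IRG bars drawn all exceed 1 (Irgq, on chromosome 7, is not drawn), while the genes that flank the groups lie between -0.79 and just past the upper line.

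Genes of the interferon signalling list, which holds activators and negative regulators, were unevenly different. Of 15 such genes passing the filter, 6 were past 2-fold higher and 0 past 2-fold lower, against 5.19% and 2.04% of all genes. The median log2 ratio of the 15 was 0.71. Irf7, a transcription factor that amplifies the type I interferon response, had 921 FPKM with ClpP siRNA and 103 FPKM with GFP siRNA, a log2 ratio of 3.14. Stat2, a transcription factor of type I interferon signalling that acts at the ISRE, had 56.9 FPKM with ClpP siRNA and 21.7 FPKM with GFP siRNA, a log2 ratio of 1.35. Irf9, which joins Stat2 at the ISRE, stayed below the limit at 0.89, and Irf1, which drives many interferon gamma genes, was only just past it, with an FPKM ratio of 2.04.

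The negative regulators Usp18 and Socs1 were also past 2-fold higher, at 2.33 and 1.17. The receptor genes were not, at -0.31 for Ifngr1, -0.35 for Ifngr2, -0.41 for Ifnar1 and 0.71 for Ifnar2. The kinases next to the receptors were at 0.24 for Jak1, 0.35 for Jak2 and 0.36 for Tyk2, and the repressor Irf2 was at 0.53. Irf8, a factor of myeloid cells, had 0.52 FPKM with ClpP siRNA and 0.974 FPKM with GFP siRNA. Ifng and Ifnb1, which encode interferons themselves, were not analysed here, since the table lists genes above 0 in both libraries.

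Guanylate-binding proteins (GBPs) are larger interferon-inducible GTPases that work with IRGs at the vacuole. Of 12 listed, 10 were measured, and these 10 were all past 2-fold higher, against 5.19% of all genes. Gbp4, Gbp5, Gbp8 and Gbp11 were below 1 FPKM with GFP siRNA and passed the filter on low values through their level with ClpP siRNA. The 10 had a median log2 ratio of 3.25 and a range of 1.91 to 4.05. Their summed level was 538 FPKM with ClpP siRNA and 36.8 FPKM with GFP siRNA, so that GBPs were the scarcer family of the pair in both libraries. Gbp2 had 181 FPKM with ClpP siRNA and 9.94 FPKM with GFP siRNA, and Gbp3 had 140 FPKM with ClpP siRNA and 7.91 FPKM with GFP siRNA.

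The autophagy conjugation machinery is needed to direct IRGs to the vacuole. A list of 18 genes, which also holds adaptors and genes that start autophagy, had a median log2 ratio of -0.07. Of these, 0 were past 2-fold in either direction, near the background of 5.19% higher and 2.04% lower over all genes. The largest were those of the adaptor Optn at 0.70 and of Gabarapl1, a ubiquitin-like protein that is joined to membranes, at -0.55. Atg5 and Atg7, of the conjugation pathway, were at -0.17 and -0.28, and Ulk1 and Becn1, which start autophagy, at 0.04 and 0.14; these 4 were picked after their values were seen. Of 6 ubiquitin ligases and partners tied to the vacuole, 1 was past 2-fold higher, against 5.19% of all genes, too few genes to read anything from the count. It was Trim21, with 23.2 FPKM with ClpP siRNA and 5.57 FPKM with GFP siRNA, while Traf6 was at 0.20 and Smurf1 at 0.41.

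**Figure D5:**
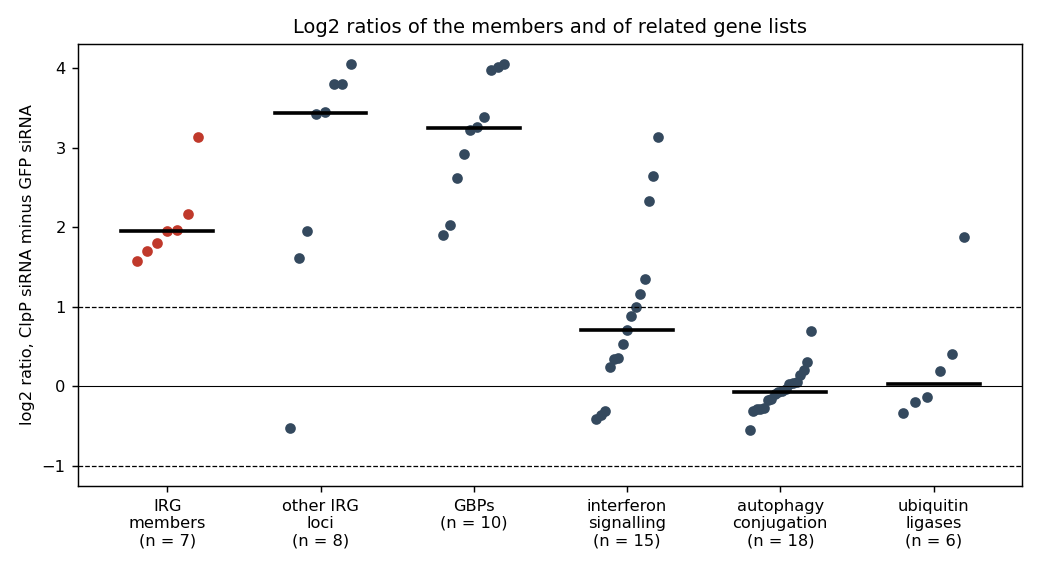
Log2 ratios (ClpP siRNA minus GFP siRNA) of single genes that passed the filter, by list; bars are medians and dashed lines mark 2-fold. Members (median 1.95), other IRG loci (3.44) and GBPs (3.25) lie high, while autophagy genes centre on -0.07.

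By the distance between log2(FPKM + 1) values over the 2 libraries, the protein-coding genes most like each member came from several functions. Tapbp, which helps load peptides on MHC class I, and C2, a complement protease, were nearest to Irgm1, and C2 and Apof, a lipoprotein protein, to Tgtp1. Ifi35 and Shisa5 were nearest to both Tgtp2 and Iigp1, and Trafd1 and Apoh to Ifi47. Tcirg1, a proton pump subunit, was among the nearest to Irgm2. Cd68, a lysosomal membrane protein, lay 0.06 log2 units from Igtp, with 226 FPKM with ClpP siRNA and 24.9 FPKM with GFP siRNA, and Oas1a lay 0.53 from it. With 2 libraries, likeness means only a like level in each.

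Macrophages and endothelial cells, which also make IRGs, can remain in a hepatocyte preparation, so their markers are given beside the members. The 11 macrophage markers measured summed to 233 FPKM with ClpP siRNA and 41.4 FPKM with GFP siRNA. Most of that was Cd68, which many cell types make and which had 226 FPKM with ClpP siRNA and 24.9 FPKM with GFP siRNA. The other 10, set apart after the values were seen, were each lower with ClpP siRNA. Those 10 summed to 6.65 FPKM with ClpP siRNA and 16.6 FPKM with GFP siRNA, and Emr1, Csf1r, Clec4f, Vsig4 and Marco were each below 1 FPKM in both libraries. The 8 endothelial markers summed to 9.44 FPKM with ClpP siRNA and 22.0 FPKM with GFP siRNA, with Pecam1 at 1.39 FPKM with ClpP siRNA and 5.17 FPKM with GFP siRNA. Among these 8, Clec4g alone was higher with ClpP siRNA, at 0.794 FPKM against 0.19 FPKM with GFP siRNA. Tek was nearly even, at 0.32 FPKM with ClpP siRNA and 0.361 FPKM with GFP siRNA. The 7 stellate cell and fibroblast markers summed to 15.7 FPKM with ClpP siRNA and 34.4 FPKM with GFP siRNA, most of it Acta2 at 9.47 FPKM with ClpP siRNA and 26.5 FPKM with GFP siRNA. Col1a1 and Dcn had log2 ratios of 0.01 and 0.00. No lymphocyte or natural killer cell marker was listed above 0 in both libraries. The 10 hepatocyte markers summed to 7406 FPKM with ClpP siRNA and 3810 FPKM with GFP siRNA. Most of that was albumin (Alb), with 6245 FPKM in the ClpP siRNA library and 2952 FPKM in the GFP siRNA library. Of the 8 that passed the filter, 5 were past 2-fold higher, Alb among them, against 5.19% of all genes. The other 3 were lower with ClpP siRNA, with log2 ratios of -0.88 for Serpina1a, -0.61 for Asgr1 and -0.32 for Apob. The hepatocyte genes Cyp3a11 and G6pc were below 1 FPKM in both libraries. The part of these shifts in the IRG levels was not tested, and in bulk RNA fewer cells of a type and less RNA per cell cannot be told apart.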

How the data were processed

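Poly-A RNA libraries of mouse primary hepatocytes were made with the TruSeq RNA kit v2 per the labels' protocols, 1 library with ClpP siRNA and 1 with GFP siRNA. The kit, as named, does not mark strand. Per the file headers, the authors deposited FPKM for each gene. The submitters' processing notes name STAR 2.4.0f1, Cufflinks 2.2.1, Bowtie2 2.2.3, TopHat2 2.0.13, Trimmomatic 0.32 and FastQC 0.10.0. A role for each, and a genome build, are not given in the sources used here. The authors also deposited log2 values, which recomputing showed to be quantile-normalized log2(FPKM + 1), and a signed fold change, handled as a score, taken from them. The ClpP siRNA column carries an abbreviated header. It was assigned from names alone, since the header of the other column names GFP, the only other group.

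Of 14346 rows, 7 named no gene (0.0335% of FPKM with ClpP siRNA and 0.0475% with GFP siRNA) and were left out. No row was at 0 in either library. FPKM totals were 535315 with ClpP siRNA and 532555 with GFP siRNA. FPKM gives no read count, so depth and counting error are unknown, and the handling of reads shared by gene copies is not given in the sources used here.

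The log2 ratio is the difference of log2(FPKM + 1) and understates changes of scarce genes. Genes with a mean of at least 1 FPKM were kept, and a log2 ratio of at least 1 in size was called. No test was possible. Members and gene lists were chosen with earlier results of these data known. The text names the members, further IRG loci, all interferon signalling genes, up to 6 genes per other list by size of log2 ratio, and the 2 genes nearest to each member. A few of the genes so chosen are not reported here. Other genes, cell type markers included, were named after their values were seen. Promoter windows were aligned locally with Biopython 1.88, and other steps used pandas 2.3.3 and NumPy 2.4.6. Alternatives covered the pseudocount, the scaling, the filter and summing of Tgtp1 with Tgtp2.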

Additional observations from a re-analysis of the deposited data

How the results depend on the processing

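All 7 members were past 2-fold higher under pseudocounts of 0.1 and 5, quantile normalization, equal FPKM totals and median-ratio scaling. The summed Tgtp1 and Tgtp2 locus was past 2-fold higher as well. Both other filters kept all 7 members, but a filter cannot change a log2 ratio. Over these settings the log2 ratio ran from 1.45 to 1.59 for Irgm1, from 1.67 to 1.84 for Ifi47 and from 2.95 to 3.19 for Igtp, so that Igtp stayed the highest of the 7. The difference between regulatory and effector medians, 0.07 as reported, was 0.042 after quantile normalization and 0.15 with Tgtp1 and Tgtp2 summed, and is too small to order the classes. Over all genes, 575 were past 2-fold higher and 226 past 2-fold lower. With a pseudocount of 5 these counts were 327 and 89, with a pseudocount of 0.1 the lower count was 357, and with a minimum mean of 5 FPKM it was 142. Of the interferon signalling genes, 4 in place of 6 were past 2-fold higher with a pseudocount of 5, and 5 after quantile normalization or with a minimum mean of 5 FPKM. Of the GBPs, 8 in place of 10 were past it with a pseudocount of 5 or that minimum, and of the other IRG loci 6 in place of 7. The counts of autophagy and ubiquitin ligase genes kept their values of 0 and 1 under all settings. Quantile normalization moved the median over all genes most, to -0.06. No paired analysis was possible because each group held 1 library, and for the same reason no library could be left out. Depth is unknown, so the error of low values, such as those of Gm12185, cannot be stated.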
